A study of Mus musculus with 6 samples.

Results

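The LIM-only genes and the genes of their best known transcription complex were followed in mouse embryonic stem (ES) cells with and without induced expression of Sim2, a basic helix-loop-helix (bHLH) PAS transcription factor. The set held 10 of the 22602 genes listed in the expression table, taken by symbol: the LIM-only genes Lmo1, Lmo2, Lmo3 and Lmo4, the LIM-domain-binding cofactors Ldb1 and Ldb2, the bHLH factors Tal1 and Lyl1, and the GATA factors Gata1 and Gata2. Lmo2 was chosen by its measured difference between these groups, among the larger ones in the table, so its values are given as a description with no test. The other members were added as its family and partners.

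Messenger RNA was sequenced from 6 libraries. The 3 Sim2 libraries came from 1 culture each of 3 ES clones, A6, B8 and C4. Their transgene codes for mouse Sim2 with a Flag tag and sits in the ROSA-TET system, under a modified human CMV promoter (hCMV*-1) that a tetracycline-repressed transactivator switches on once tetracycline is removed, with an IRES-Venus reporter downstream. The 3 EB3 libraries came from independent cultures of the parental line EBRTcH3 (EB3), which lacks the Sim2 transgene. The paper used the Venus reporter as an internal control in EB3 as well, and found it induced there after 26 h. Both groups were kept in serum and LIF and were held for 26 h without tetracycline. The comparison therefore set clones with the Sim2 transgene against their parental line and not induced against uninduced cells of the same clone.

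LIM-only proteins consist mainly of LIM zinc-binding domains and bind no DNA themselves. In blood and endothelial precursors LMO2 acts as a bridge, joining a TAL1 or LYL1 dimer with an E protein and a GATA factor through LDB1, a self-associating cofactor, and the assembled complex can occupy paired E-box and GATA motifs. LMO2 and TAL1 are required for blood formation in the mouse embryo and are known oncogenes of T-cell leukaemia, while LMO4 and LDB1 are widely expressed and work with many partners outside blood.

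The files hold RPKM values, that is, reads scaled by the listed cDNA length of a gene and by the depth of the library. Levels are compared between genes and between libraries on this scale, which did not remove a shift of EB3-0 with transcript length, given below. Between 25095861 and 28269340 reads stood behind a library. Sim2 itself was at 196 RPKM (A6), 212 RPKM (B8) and 168 RPKM (C4) in the clones and at 0.130 RPKM (EB3-0), 0.0917 RPKM (EB3-1) and 0.104 RPKM (EB3-2) in the parental line, as the labels have it. The 6 ES cell markers checked (Pou5f1, Nanog, Sox2, Zfp42, Esrrb and Tdgf1) summed to 3206 to 3407 RPKM in the clones and 3400 to 3823 RPKM in EB3, with Pou5f1 the most abundant of them. The groups did not overlap for Zfp42 and Tdgf1, lower in the clones, and for Esrrb, higher in the clones. Of the other marker lists the 5 neural genes summed to 85.3 to 106 RPKM in the clones and 125 to 143 RPKM in EB3, with Tubb3 and Neurog1 lower and Nes higher in every clone, and their part in the members' values was not tested. Over all tested genes the groups did not overlap for 13.4% in the lower and 12.7% in the higher direction. Neurog1 was too low to be tested. The library EB3-0 stood apart from EB3-1 and EB3-2 in a way that followed transcript length: over tested genes within 10% of a member's cDNA length, its median distance from the mean of those 2 libraries, in log2(RPKM + 0.5), ran from 0.30 at the length of Lmo1, the shortest, to -0.15 at that of Tal1, the longest. RNA came from whole cultures, in which fewer cells of a type and less RNA per cell cannot be told apart.

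The listed position of Lmo2 in mm9 was chromosome 2, bases 103810444 to 103822035, on the plus strand, with a cDNA length of 1646 bases, which equals the length of 1 annotated GENCODE transcript. GENCODE starts the gene at base 103798143 and holds 10 transcripts, of which 8 begin upstream of the listed start, by up to 12301 bases, so exons used only by the upstream transcripts lie outside the listed span. No other listed gene overlapped any of the 10 members. A search of the mm9 genome with each member's annotated transcript, for further matches of at least 100 bases at 90% identity, found 1 for Ldb1 (203 bases on chromosome 14, 99.5% identical) and none for the other members.

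Promoter sequences were read for the members held in the RefSeq table of mouse promoters (GRCm38.p6, 250 bases before to 50 after each start), which gave 15 windows for 8 members. Lmo2 and Ldb2 were not among them. The letters ACGTG, the core to which bHLH-PAS factors paired with ARNT are known to bind, occurred on either strand in 5 of the 15 windows, from Gata2, Ldb1, Lmo4 and Lyl1, against 19.6% of all 32851 windows; the pair of Lmo4 windows overlap and share 1 site, so these were 4 distinct sites. GATAA, the GATA factor motif, occurred in 2 of the 15 windows, from Ldb1 and Tal1, against 25.4% of all windows. CAGATG, an E-box bound by TAL1 dimers, occurred in 1 of the 15, from Tal1, against 17.2% of all windows. The general E-box CANNTG, which overlaps CAGATG, occurred in 10 of the 15 windows, against 72.3% of all windows. Each of the 8 members had at least 1 window with it. The stretches below are shown because they belong to the most abundant LIM-only gene, to the most abundant cofactor and to the bHLH partner, and they are written 5′ to 3′ on the strand of the gene, with the motif or its reverse complement in capitals.
Lmo4, chr3:144202530-144202589, minus strand, ACGTG at -165 from the start: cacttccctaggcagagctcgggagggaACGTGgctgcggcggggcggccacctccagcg
Ldb1, chr19:46045312-46045371, minus strand, reverse complement of ACGTG at -32 from the start: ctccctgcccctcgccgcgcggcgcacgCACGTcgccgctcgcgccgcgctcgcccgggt
Tal1, chr4:115056193-115056252, plus strand, reverse complement of GATAA at -205 from the start: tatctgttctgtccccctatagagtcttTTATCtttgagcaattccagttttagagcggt
A match of letters is not a measured binding site, and the share of all windows holding each motif is the background for it.

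Lmo2 mRNA was higher in every Sim2 clone than in every EB3 culture. It measured 3.53, 2.64 and 2.99 RPKM in A6, B8 and C4, from 146, 112 and 139 reads, against 0.957 in EB3-0, 0.886 in EB3-1 and 0.745 in EB3-2, from 43, 39 and 32 reads. The groups did not overlap, and the lowest clone lay 2.76 times above the highest EB3 culture. The means were 3.05 ± 0.451 RPKM in the clones and 0.863 ± 0.108 in EB3 (SD, n = 3 each), a ratio of 3.54, and the difference on the scale of log2(RPKM + 0.5) was 1.38 ± 0.17 (SE from the limma fit).

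Counting error was appreciable at these read numbers. With the 2 mates of a fragment taken as 1 observation, the 95% exact Poisson interval of the single library ran from 1.99 to 3.43 RPKM in B8, the lowest clone, and from 0.596 to 1.46 RPKM in EB3-0, the highest EB3 culture. Such intervals cover counting error only. Lmo2 reached the mean of 1 RPKM over the 6 libraries that was required for testing only through the clones, since its EB3 mean lay below it. Relative to the EB3 mean, Lmo2 stood at 4.10 times in A6, 3.06 times in B8 and 3.46 times in C4. Among all listed genes the clone mean put Lmo2 at percentile 57.4 and the EB3 mean at percentile 47.8. These percentiles count the 4639 listed genes that had no read in any library. In the clones Lmo2 was thus near the middle of all listed genes, the silent ones included, and far from the most abundant. The difference was 1.43 without EB3-0, and it lay between 1.28 and 1.46 when any 1 library was left out.

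Lmo4, the widely expressed LIM-only gene, was the most abundant of the family in both groups. It measured 16.6, 22.7 and 20.2 RPKM in A6, B8 and C4, against 16.2, 16.3 and 15.8 in EB3-0, EB3-1 and EB3-2. The clones differed among themselves by up to 1.37 times, and A6 lay just above the EB3 cultures while B8 and C4 lay clearly above them. The means were 19.8 ± 3.09 and 16.1 ± 0.292 RPKM (SD, n = 3 each), and the difference of 0.28 ± 0.13 in log2(RPKM + 0.5) did not pass the test (limma, Benjamini-Hochberg over 11595 genes, adjusted p = 0.294). An exact 2-sided permutation test gave p = 0.1, the smallest value that 3 libraries against 3 allow.

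Lmo1, a neural LIM-only gene and T-cell oncogene, stayed near the floor of detection. Its values were 0.409, 0.435 and 0.429 RPKM in A6, B8 and C4 (11, 12 and 13 reads) and 0.787, 0.349 and 0.215 RPKM in EB3-0, EB3-1 and EB3-2 (23, 10 and 6 reads). The groups overlapped fully, the EB3 values lying on both sides of the clones (exact 2-sided permutation test, p = 1). Most of the spread came from EB3-0, which was 0.72 above the mean of the other EB3 cultures in log2(RPKM + 0.5), where tested genes of a like cDNA length had a median of 0.30. Lmo3, another neural member, had 2 reads in C4 (0.0337 RPKM) and none in the other libraries, for which 3 fragments would have given between 0.105 and 0.114 RPKM.

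**Figure D1:**
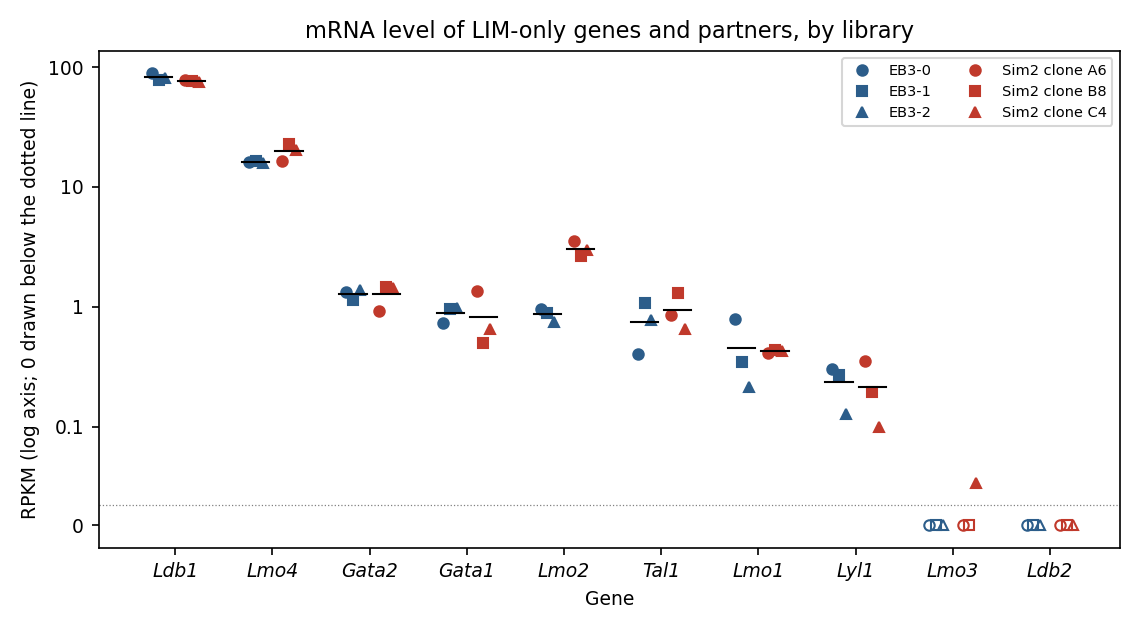
Level of each of the 10 genes in RPKM (vertical axis, log scale, with values of 0 drawn as open symbols below the dotted line) in the 3 EB3 cultures (blue) and the 3 Sim2 clones (red), 1 symbol a library, with black bars at the group means. Lmo2 is the gene with a wide gap between the groups, from 0.957 RPKM in the highest EB3 culture to 2.64 RPKM in the lowest clone, while Ldb1 and Lmo4 lie far above all others in both groups.

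The LIM-only pool as a whole was made up mostly of Lmo4, with Lmo2 as a minor part that was larger in the clones. The summed level of Lmo1 to Lmo4 was 20.5, 25.8 and 23.7 RPKM in A6, B8 and C4 and 17.9, 17.6 and 16.7 RPKM in EB3-0, EB3-1 and EB3-2. Lmo2 made up 17.2%, 10.3% and 12.6% of that sum in the clones and 5.34%, 5.04% and 4.45% in EB3. A6 held the highest Lmo2 share and the lowest Lmo4 level of the clones, and B8 the reverse, so Lmo4 exceeded Lmo2 by 4.68 times in A6, 8.59 times in B8 and 6.78 times in C4, against 16.9 to 21.2 times in EB3. These sums and shares contain Lmo2 and are described with no test.

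Ldb1, the cofactor that joins LIM domains to the rest of the complex, was the most abundant of the 10 genes. It measured 77.6, 76.6 and 75.0 RPKM in A6, B8 and C4 and 88.9, 78.1 and 80.6 RPKM in EB3-0, EB3-1 and EB3-2. All clones lay below all EB3 cultures, but the gap between the highest clone and the lowest EB3 culture was smaller than the spread among the clones. The means were 76.4 ± 1.29 and 82.5 ± 5.64 RPKM (SD, n = 3 each), the log2 difference was -0.11 ± 0.08, and it did not pass the test (limma, adjusted p = 0.549, with a 95% interval of the difference from -0.30 to 0.09). The EB3 spread came mainly from EB3-0, and the difference was -0.05 without that library. Its close relative Ldb2 had no read in any of the 6 libraries, where 3 fragments on its cDNA of 2622 bases would have given 0.0809 to 0.0912 RPKM.

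Ldb1 mRNA exceeded the summed LIM-only mRNA in every library. The ratio was 3.79, 2.97 and 3.17 in A6, B8 and C4 and 4.96, 4.44 and 4.82 in EB3-0, EB3-1 and EB3-2, with group means of 3.31 ± 0.424 and 4.74 ± 0.267 (SD, n = 3 each). Every clone lay below every EB3 culture in this ratio, in which the LIM-only sum was larger and Ldb1 slightly smaller in the clones. That sum contains Lmo2, which was chosen by its difference in this contrast. The gap between the groups is therefore partly built in and is described with no test. The values are ratios of mRNA and not of protein.

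**Figure D2:**
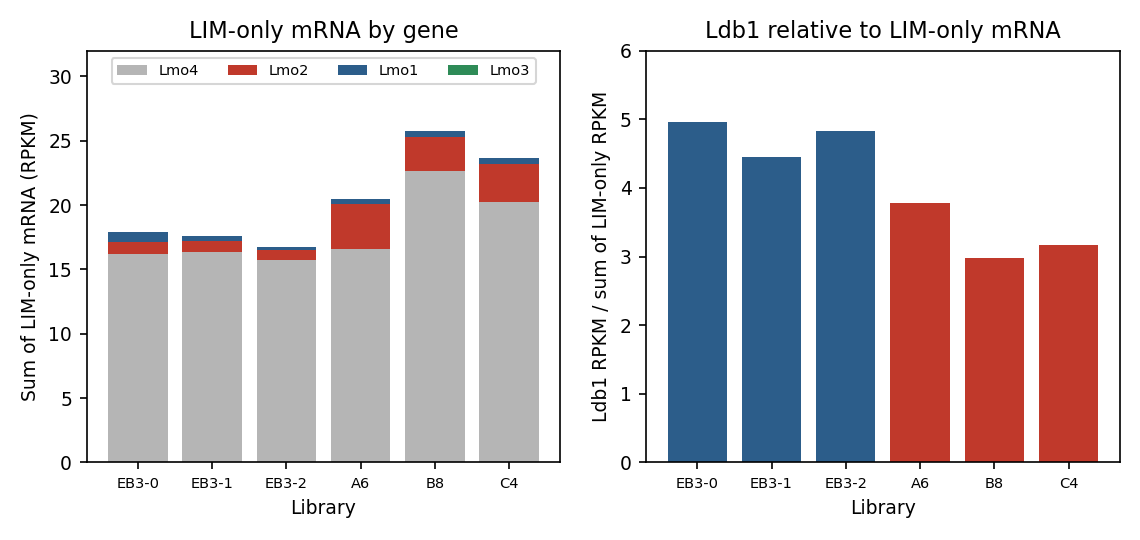
Left, sum of the mRNA of Lmo1, Lmo2, Lmo3 and Lmo4 in RPKM for each of the 6 libraries, stacked by gene; right, Ldb1 RPKM divided by that sum for each library, EB3 in blue and Sim2 clones in red. Lmo4 makes up most of every column, the Lmo2 layer is 10.3% to 17.2% of the sum in the clones and 4.45% to 5.34% in EB3, and the Ldb1 ratio is 2.97 to 3.79 in the clones and 4.44 to 4.96 in EB3.

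The GATA members and the bHLH members Tal1 and Lyl1 were present at low levels, and for none of them did the groups separate. Gata2, which acts in early blood progenitors, measured 0.922, 1.46 and 1.43 RPKM in A6, B8 and C4, against 1.32, 1.14 and 1.37 in EB3-0, EB3-1 and EB3-2. The EB3 cultures fell within the range of the clones, and the log2 difference was -0.02 ± 0.19 (limma, adjusted p = 0.970, 95% interval from -0.45 to 0.41). A6 was the low library, and without it the difference was 0.13.

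Gata1, the red-cell GATA factor, varied among the clones more than among the EB3 cultures in these values. It measured 1.35, 0.494 and 0.646 RPKM in A6, B8 and C4 (61, 23 and 33 reads), a range of 2.72 times, against 0.730, 0.952 and 0.975 RPKM in EB3-0, EB3-1 and EB3-2 (36, 46 and 46 reads). A6 lay above and B8 and C4 below all EB3 cultures (exact 2-sided permutation test of the means, p = 0.9). In log2(RPKM + 0.5) the distance of EB3-0 from the mean of EB3-1 and EB3-2 was -0.25. Tested genes of a like cDNA length had a median of 0.17, the opposite sign. The sum of Gata1 and Gata2 was nearly level, at 1.95 to 2.27 RPKM in the clones and 2.05 to 2.35 RPKM in EB3, since A6 held the highest Gata1 and the lowest Gata2 of the clones.

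Tal1, the bHLH partner of LMO2, measured 0.852, 1.30 and 0.646 RPKM in A6, B8 and C4 and 0.405, 1.08 and 0.773 RPKM in EB3-0, EB3-1 and EB3-2. The groups overlapped (exact 2-sided permutation test, p = 0.5), and the spread within EB3 was 2.66 times from lowest to highest, wider than the 2.01 times among the clones. EB3-0 was the lowest library, 0.65 below the mean of EB3-1 and EB3-2 in log2(RPKM + 0.5), while tested genes of a like cDNA length, 4161 bases for Tal1, had a median of -0.15 in the same comparison. Lyl1, the relative of Tal1 that can take its place, was lower still, at 0.354, 0.194 and 0.0982 RPKM in A6, B8 and C4 (16, 9 and 5 reads) and 0.305, 0.270 and 0.128 RPKM in EB3-0, EB3-1 and EB3-2 (15, 13 and 6 reads), with overlapping groups (exact 2-sided permutation test, p = 0.9).

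By level Ldb1 and Lmo4 came first in both groups, and below them the place of Lmo2 differed. In the clones the order was Ldb1, Lmo4, Lmo2, Gata2, Tal1, Gata1, Lmo1, Lyl1, Lmo3 and Ldb2, where the ranges of Gata2 and Tal1, of Tal1 and Gata1, and of Lmo3 and Ldb2 overlapped. In EB3 it was Ldb1, Lmo4, Gata2, Gata1, Lmo2, Tal1, Lmo1 and Lyl1, with Lmo3 and Ldb2 at 0, and the ranges of each neighbouring pair from Gata1 to Lyl1 overlapped. Lmo2 was thus within the spread of Gata1 and Tal1 in EB3, and in the clones it lay above Gata2 in range as well as in mean.

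Of the 10 members, 4 passed the filter on low values (Lmo2, Lmo4, Ldb1 and Gata2), and the highest mean of the 6 that did not was 0.857 RPKM. Apart from Lmo2, which was chosen for this contrast, 0 of the 3 tested members passed an adjusted p of 0.05 in limma, and 0 had an unadjusted p under 0.05. Over all 11595 tested genes 81 passed, which is 0.699%, or 0.345% higher and 0.354% lower in the clones, and 17.8% had an unadjusted p under 0.05. The groups did not overlap for Lmo4 (higher) and Ldb1 (lower), as they did not for 12.7% of all tested genes in the higher and 13.4% in the lower direction, so such a gap was common in these libraries.

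The cofactors and corepressors that LDB1 and TAL1 complexes are known to recruit, a list of 18 genes, gave no call. Of its 13 tested genes 0 passed in limma in either direction, 0 had an unadjusted p under 0.05, the lowest adjusted p was 0.283, and the log2 differences ran from -0.20 to 0.46 with a median of 0.02, beside -0.01 over all tested genes. The most abundant were Kdm1a, a histone demethylase (73.3 ± 3.80 RPKM in the clones, 82.3 ± 12.6 in EB3), Hdac2, a histone deacetylase (58.2 ± 1.73 and 65.9 ± 1.46), Sin3a, a corepressor scaffold (58.9 ± 2.77 and 60.6 ± 5.39), and Rlim, a ubiquitin ligase that acts on LIM cofactors (25.3 ± 1.49 and 28.0 ± 5.88), each as mean ± SD with n = 3. Hdac1 and Hdac2 were the tested genes of this list whose groups did not overlap, both lower in the clones, with log2 differences of -0.20 ± 0.12 and -0.18 ± 0.08 (limma, adjusted p = 0.423 and 0.283). Over all tested genes 13.4% did not overlap in the lower direction. Hdac1 is named here after its values were seen.

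E proteins, the dimer partners of TAL1 and LYL1, and the Id proteins that hold E proteins off DNA were abundant by comparison with Tal1 and Lyl1. Of 10 genes on this list 7 were tested, 0 passed in limma, 0 had an unadjusted p under 0.05, the lowest adjusted p was 0.350 and the median log2 difference was -0.25. Tcf3, the most abundant E protein gene, measured 40.2, 43.0 and 42.3 RPKM in A6, B8 and C4 and 41.9, 38.1 and 37.9 RPKM in EB3-0, EB3-1 and EB3-2. The Id genes varied widely among the clones: Id1 ran from 54.6 RPKM in B8 to 129 RPKM in A6, with 104 to 118 RPKM in EB3, and Id3 from 17.7 RPKM in B8 to 37.5 RPKM in A6, with 31.8 to 45.7 RPKM in EB3. Id2 went the other way among the clones, from 12.2 RPKM in A6 to 23.6 RPKM in B8, with 14.6 to 24.4 RPKM in EB3. B8 was thus the low clone for Id1 and Id3 and the high clone for Id2.

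Other GATA factors and LIM-homeodomain factors, which share partners with the members, were scarce. None of the 4 other GATA genes passed the filter: Gata4, of endoderm and heart, measured 0.846, 0.938 and 0.980 RPKM in A6, B8 and C4 and 0.659, 0.518 and 0.745 RPKM in EB3-0, EB3-1 and EB3-2, with no overlap (exact 2-sided permutation test, p = 0.1), and Gata5 had no read. Extraembryonic endoderm markers, among them Gata4 and Gata6, summed to 3.52 to 4.22 RPKM in the clones and 2.29 to 2.64 RPKM in EB3 over 6 genes. Of these 5 had a mean under 1 RPKM and 2 did not overlap, both higher. Those 2, Gata4 and Sox17, were too low to be tested, and over all tested genes 12.7% did not overlap in the higher direction. The part of these markers in the other values was not tested. Of 12 LIM-homeodomain genes only Lhx6 was tested, at 1.99 ± 0.180 RPKM in the clones and 1.87 ± 0.208 in EB3 (SD, n = 3 each; limma, adjusted p = 0.854, so 0 passed).

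Transcription factors of the blood lineage gave no call either. The table held 11 of the 12 genes listed, 5 were tested, 0 passed in limma, 0 had an unadjusted p under 0.05, and the median log2 difference was 0.05 with a lowest adjusted p of 0.455. Cbfb, the non-DNA-binding partner of RUNX factors, was the most abundant (21.1 ± 1.11 RPKM in the clones, 24.3 ± 3.46 in EB3), followed by Etv6 (14.0 ± 3.25 and 12.9 ± 1.79), Hhex (4.95 ± 0.649 and 4.75 ± 0.624) and Myb (2.23 ± 0.416 and 1.78 ± 0.259), each as mean ± SD with n = 3. Runx1, the main partner of CBFB in blood, stayed at or below 0.196 RPKM in every library, and Fli1 had 1 read in B8 and none elsewhere; both are named after their values were seen.

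The blood and endothelial genes showed the widest differences of the lists, and none of them passed the test. Of 17 genes 16 were in the table, 6 were tested and 0 passed in limma, with a lowest adjusted p of 0.102 and a median log2 difference of 0.32, while 3 had an unadjusted p under 0.05 (Tek, Kit and Kdr), as 17.8% of all tested genes did. Kit, the stem cell factor receptor, measured 11.6, 16.3 and 13.0 RPKM in A6, B8 and C4 and 9.60, 9.12 and 8.59 RPKM in EB3-0, EB3-1 and EB3-2 (log2 difference 0.55 ± 0.14, limma, adjusted p = 0.111). Tek, an angiopoietin receptor of endothelium, measured 3.63, 6.65 and 3.77 RPKM in the clones and 1.64, 2.23 and 2.38 RPKM in EB3 (0.97 ± 0.24, limma, adjusted p = 0.102). Kdr, a VEGF receptor, measured 1.38, 1.70 and 1.95 RPKM in the clones and 1.06, 1.04 and 1.11 RPKM in EB3 (0.46 ± 0.17, limma, adjusted p = 0.210). For these receptors every clone lay above every EB3 culture, as it did for 12.7% of all tested genes.

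The remaining tested genes of that list did not follow. Pecam1, an adhesion molecule that ES cells also make, measured 20.4 ± 3.57 RPKM in the clones and 20.7 ± 2.23 in EB3, and Cd34, a progenitor surface protein, 4.25 ± 0.696 and 3.69 ± 0.298. Epor, the erythropoietin receptor, was lower in every clone than in every EB3 culture, at 1.36 ± 0.213 against 1.66 ± 0.193 RPKM (limma, adjusted p = 0.549; SD, n = 3 each). Kdr and Epor are named here after their values were seen. Endothelial markers summed to 6.11 to 10.2 RPKM in the clones and 3.30 to 4.18 RPKM in EB3 over 5 genes, 3 of which did not overlap (higher in the clones) and 3 of which had a mean under 1 RPKM. The non-overlapping ones were Tek, Kdr and Cdh5, an endothelial cadherin, which measured 0.100, 0.204 and 0.106 RPKM in A6, B8 and C4 and 0.0919, 0.0281 and 0.0192 RPKM in EB3-0, EB3-1 and EB3-2. Cdh5 was too low to be tested, and over all tested genes 12.7% did not overlap in the higher direction. Vwf, the gene for von Willebrand factor, had means of 1.12 ± 0.483 and 0.637 ± 0.117 RPKM with overlapping groups (SD, n = 3 each), and Emcn had no read in any library. The part of endothelial cells in the Tek, Kdr and Kit values was not tested. The 6 blood markers in the table summed to 3.78 to 5.36 RPKM in the clones and 3.78 to 4.27 RPKM in EB3, mostly from Cd34, with Hbb-bh1 at 0 in all libraries and Ptprc at 0.0274 RPKM or below. Hba-a1 and Hbb-b1, adult haemoglobin genes, had no read either.

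**Figure D3:**
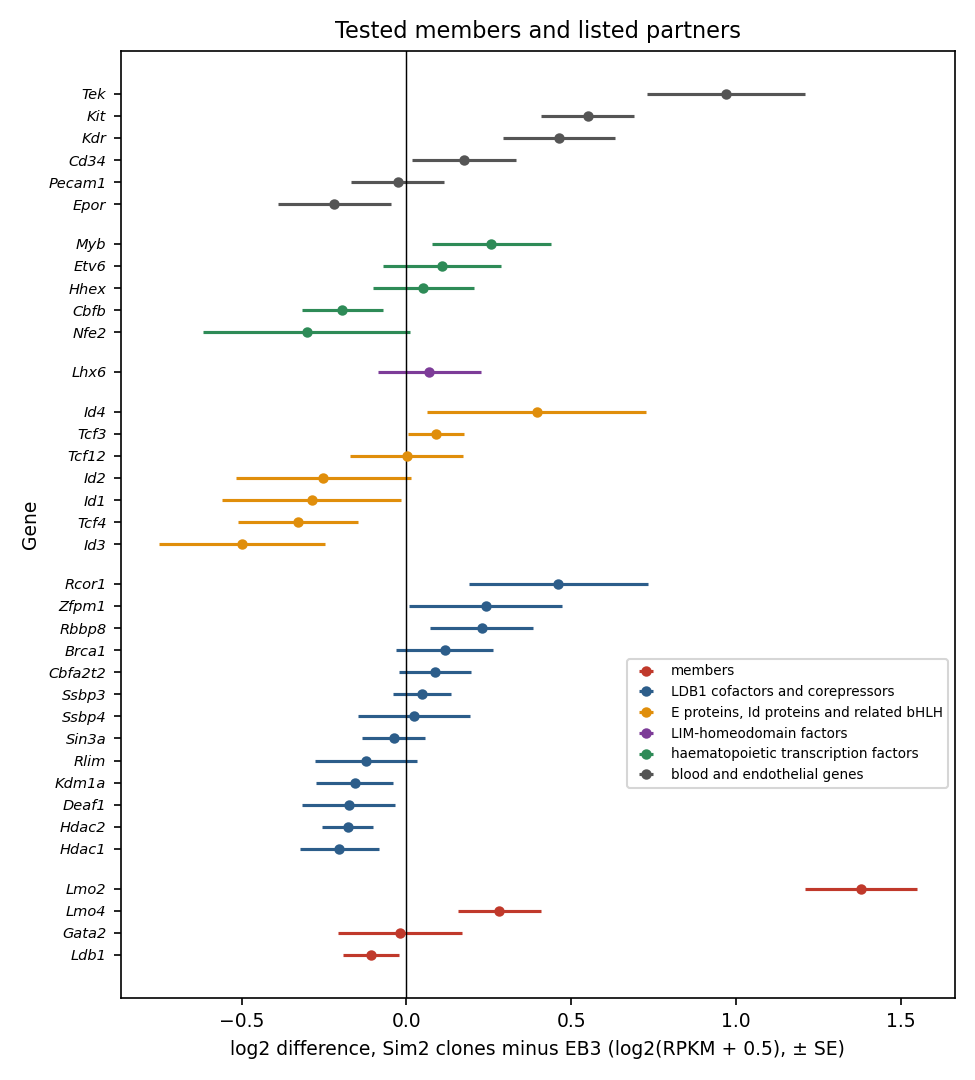
Difference between Sim2 clones and EB3 for each tested member and listed partner gene, in log2(RPKM + 0.5) (horizontal axis, points with ± SE from limma, 3 libraries a group), coloured by list. Lmo2 at 1.38 is set apart from Ldb1 at -0.11, Gata2 at -0.02 and Lmo4 at 0.28, and most partner genes lie within 0.50 of 0, with Tek at 0.97, Kit at 0.55 and Id3 at -0.50 toward the ends.

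The genes whose levels followed Lmo2 most closely across the 6 libraries were read off by Pearson's r of log2(RPKM + 0.5) over 11594 other tested genes. They were Grn (r = 0.997), Nkx6-3 (0.996), Vps11 (0.995), Pla2g6 (0.994) and Zfp36 (0.993), where the gene at rank 100 still had 0.954. The 6 libraries share the contrast that set Lmo2 apart, so these values describe a common order of libraries. Nkx6-3, a homeobox gene, had a ratio of group means of 3.58, beside 3.54 for Lmo2, and a log2 difference of 1.80, beside 1.38, with 46.0, 37.8 and 38.1 RPKM in A6, B8 and C4 against 12.7, 10.8 and 10.5 RPKM in EB3-0, EB3-1 and EB3-2. A6 was highest and EB3-2 lowest for Nkx6-3 as for Lmo2. The others had smaller differences: Grn, the gene for progranulin, ran from 35.6 to 37.6 RPKM in the clones and from 28.5 to 30.0 in EB3, and Zfp36, which codes for an mRNA-destabilising protein, from 19.0 to 21.1 RPKM and from 12.8 to 13.5.

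Around Lmo2 on chromosome 2, 12 listed genes lay within or reached into 500 kb on either side, and 6 of them were tested. Of these 0 passed in limma, and the median log2 difference was 0.01. An unadjusted p under 0.05 in limma was found for 1 of the 6 (Cat), as for 17.8% of all tested genes. Fbxo3, the nearest tested gene, which starts 57.5 kb beyond the Lmo2 start, measured 8.21 ± 0.789 RPKM in the clones and 8.07 ± 0.801 in EB3. On the other side Caprin1, which codes for an RNA-binding protein, measured 151 ± 7.50 and 178 ± 20.3 RPKM (log2 difference -0.23 ± 0.11, limma, adjusted p = 0.308), and Nat10, an RNA acetyltransferase gene, 37.6 ± 2.64 and 37.8 ± 0.463 RPKM. Cat, the catalase gene at the edge of the window, measured 31.5, 38.3 and 35.3 RPKM in A6, B8 and C4 and 22.9, 25.8 and 23.9 RPKM in EB3-0, EB3-1 and EB3-2, with no overlap (0.52 ± 0.10, limma, adjusted p = 0.0716, unadjusted p = 0.000932). Such a gap in the higher direction was found for 12.7% of all tested genes. The paper, which used edgeR, did call Cat higher in the Sim2 clones. Cd59a, a complement regulator gene, and Hipk3, a protein kinase gene, had log2 differences of -0.18 ± 0.15 and 0.54 ± 0.24 with overlapping groups (limma, adjusted p = 0.572 and 0.288). Of the neighbours too low to be tested, only Abtb2 had groups that did not overlap. It measured 1.11 ± 0.427 RPKM in the clones and 0.567 ± 0.0676 in EB3 (SD, n = 3 each) and is named after its values were seen.

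**Figure D4:**
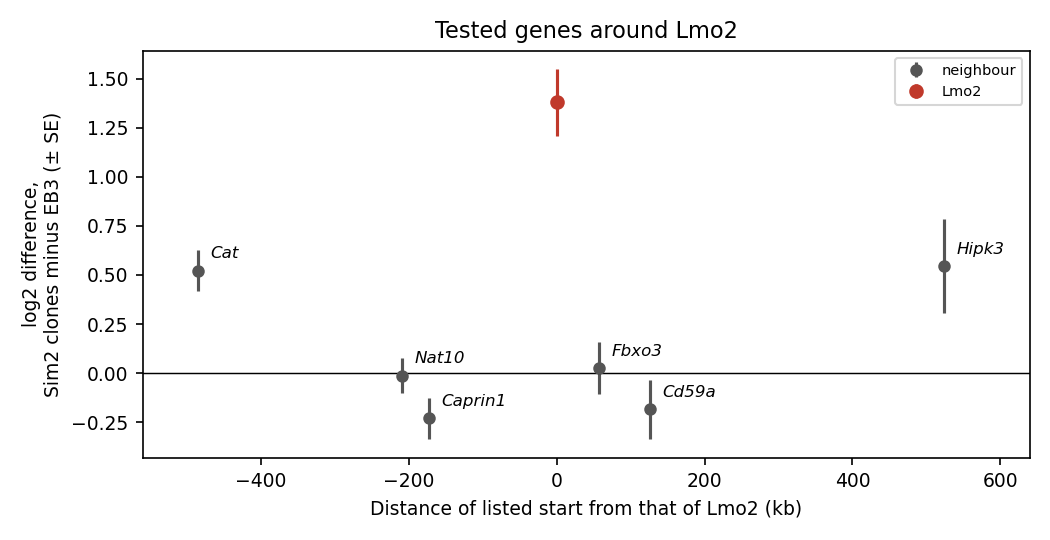
Difference between Sim2 clones and EB3 in log2(RPKM + 0.5) (vertical axis, ± SE from limma, 3 libraries a group) for Lmo2 (red) and the 6 tested genes in its neighbourhood (grey), by distance of the listed start from that of Lmo2 in kb. The tested genes nearest to Lmo2 lie between -0.23 and 0.02, below Lmo2 at 1.38, and Cat and Hipk3 at the edges lie at 0.52 and 0.54.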

How the data were processed

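Libraries of mRNA (TruSeq, paired-end) from 6 cultures were mapped by the authors to mm9 with BWA, and a custom pipeline turned exon coverage into the deposited RPKM values, with the cDNA length and position of each gene beside them. Strand handling and annotation version are not given in the sources used here. Read numbers were recovered from RPKM, the deposited cDNA length and the depth of each library, and 100% of values came out whole within 0.001. Since more genes had 2 reads than 1 (742 against 199 in A6), mates appear to have been counted apart, and intervals (95%, exact Poisson) and the floor of 3 fragments were computed on fragments of 2 reads each.

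Groups were compared with limma 3.58.1 (R 4.3.3; lmFit, eBayes with trend) on log2(RPKM + 0.5) over the 11595 genes with a mean of at least 1 RPKM, 51.3% of those listed, with Benjamini-Hochberg adjustment and a threshold of 0.05. A fold on this scale understates the change of low genes. Members under the filter were compared by an exact 2-sided permutation test of the means, whose smallest p is 0.1. No count model was fitted to the recovered reads. The fit was tested on simulated data. Transcripts were searched against the mm9 genome with blastn 2.17.0.

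The members and gene lists were chosen with earlier results of these data known. The genes named were all members; up to 4 of the most abundant tested genes of each list, besides any that passed; the 5 genes most like Lmo2; and the tested genes within 500 kb. The Sim2 libraries are different clones and the EB3 libraries cultures of 1 line, so the spread within a group differs in kind.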

Additional observations from a re-analysis of the deposited data

How the results depend on the processing

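The number of genes that passed the test, 81 (40 higher, 41 lower), was the result most open to the settings. It was 23 with no filter on low values, 30 with eBayes without trend, 6 with EB3-1 and EB3-2 averaged as 1 library and 238 (131 higher, 107 lower) with the trend on cDNA length removed, and from 6 to 694 with 1 library left out. It was 694 without EB3-0, 6 without EB3-1, 6 without EB3-2, 20 without A6, 17 without B8 and 7 without C4. Rescaling the libraries to the same median gave 66 (26 higher, 40 lower). The cause of these shifts was not tested. Fewer libraries entered the fits with 1 left out, among them the fit without EB3-0, in which more genes passed. No gene of a pathway list passed under any alternative, in 72 fits of a list that had a tested gene; the other GATA factors had none in the other 12 and could give no call there.

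The log2 difference of Lmo2 was 1.38, moved to 1.71 with a pseudocount of 0.1 and to 1.12 with a pseudocount of 1, by construction of a scale on which the pseudocount weighs on low values, and it ranged from 1.28 to 1.46 with 1 library left out. Lmo4 kept a positive sign in all 14 alternatives (0.18 to 0.40, limma, adjusted p from 0.208 to 0.539) and Ldb1 a negative one (-0.15 to -0.05, adjusted p from 0.452 to 0.732), and neither passed in any. Gata2, at -0.02, reversed to 0.13 without A6 and to 0.02 without EB3-2 and ranged from -0.10 to 0.13 with 1 library left out, without passing in any.

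No paired analysis was possible because the groups share no replicate numbers. The 6 members under the filter had at most 139 reads in a library, and the exact permutation test used for them cannot go below p = 0.1 with 3 libraries a group.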
